A study of Mus musculus with 24 samples.

Results

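The genes of autophagy and the lysosome were followed across 4 genotypes of mouse brain. The list held 45 genes, and a member was every probe set, the group of short probes that reads 1 transcript, whose only gene symbol was on the list. It took in 111 of 45101 probe sets and 44 of the 45 genes; the cargo receptor gene Optn had no probe set with a single symbol and was not analysed here. Of these, 95 probe sets passed a filter on dim signal, with at least 1 for each of the 44 genes. Each gene was summarised by its brightest probe set, all 44 of which were tested. Single genes are described by the probe sets named with them, which for some genes are not all of their probe sets.

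Total RNA of whole brain from 4-month-old mice was hybridised to 24 Affymetrix arrays, 1 per sample. Per the labels there were 6 arrays of wild type (wt), 6 of aSYN alone, 6 of Hsp70 alone and 6 of aSYN with Hsp70 (aSYN/Hsp70). aSYN is read here as alpha-synuclein, and Hsp70 is a heat shock chaperone; the labels give no strain, promoter, species of transgene or sex. They do not say whether each sample was a separate animal. The p-values therefore describe sample-to-sample spread, which may be technical.

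Autophagy wraps cytoplasm in a membrane and delivers it to the lysosome for breakdown. ULK kinases and a lipid kinase complex around Beclin 1 start the membrane, a chain of ATG proteins couples LC3 and GABARAP proteins to it, and receptors such as p62 and NBR1 bring in cargo. The lysosome holds hydrolases that work at the acid pH made by the V-ATPase proton pump, and neurons with inherited hydrolase defects store undegraded material. Alpha-synuclein is among the proteins degraded in the lysosome, in part through LAMP2.

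Many lysosomal genes share a promoter element bound by the transcription factor TFEB, itself on the list, whose core is the palindrome TCACGTGA. This is background for why these letters were looked for, and no binding was measured. The RefSeq promoters (GRCm38.p6) run from 250 bases before to 50 after a start site. Of the 44 genes 35 matched at least 1, with 40 promoters in all, so some genes had more than 1 start site. TCACGTGA stood in promoters of 7 of the 35 genes (20%), against 1.12% of 27025 genes. For Ctsa and Atp6v1a the start site used lay inside the mapped gene, whose outer start was at 164832872 and 44139702. The 9 matches are shown because they are the letters these members share, each as 30 bases in gene orientation with the core in capitals.
Atg3 (LC3 conjugation), chr16:45158746-45158775, plus strand: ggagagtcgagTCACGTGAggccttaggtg
Mcoln1 (lysosomal calcium channel), chr8:3500462-3500491, plus strand: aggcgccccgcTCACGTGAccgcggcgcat
Ctsa (protease), chr2:164833749-164833778, plus strand: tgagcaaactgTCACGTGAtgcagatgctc
Ctsa again, chr2:164833766-164833795, plus strand: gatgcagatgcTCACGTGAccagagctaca
Ctsd (protease), chr7:142387908-142387937, minus strand: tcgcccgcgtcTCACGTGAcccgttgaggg
Gla (glycosidase), chrX:134601215-134601244, minus strand: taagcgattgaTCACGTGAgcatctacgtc
Gla again, chrX:134601182-134601211, minus strand: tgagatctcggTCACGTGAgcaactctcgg
Atp6v1a (V-ATPase), chr16:44139373-44139402, minus strand: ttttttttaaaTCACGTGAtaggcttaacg
Atp6v0d1 (V-ATPase), chr8:105566050-105566079, minus strand: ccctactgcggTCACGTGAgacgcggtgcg

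The shortest core inside that element, CACGTG, was in promoters of 14 of the 35 genes (40%), against 8.09% of all genes. Altogether 7 strings were searched on both strands, and 5 of them contain CACGTG, so their counts overlap. TCACGTG was in 11 of the 35 (31.4%, against 4.29% of genes) and GTCACGTG in 9 (25.7%, against 2.55%). The 10-letter form of the element, TCACGTGA with G before and C after, was in 0 (against 0.37%). The 2 others were CACATG, in 6 of the 35 (17.1%, against 15.9%), and TGACTCA, in 2 (5.71%, against 5.95%). In the wider list of pathway genes described further on, TCACGTGA was in promoters of 8 of 101 genes (7.92%). The members were picked as known autophagy and lysosome genes, so a share above that of all genes is a description of the list.

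Expression is given as log2(intensity + 16) after quantile normalisation, and differences are in the same log2 units; levels of different probe sets are not set against each other. Array medians before normalisation ran from 458 to 893 intensity units. Limma weighted 4 arrays under 0.5 because they stood apart, namely Hsp70 replicates 3 and 6 and aSYN/Hsp70 replicates 3 and 4. By the signal of Xist and Y-linked genes, females made up 4 of 6 samples in the wt group and in the aSYN group, 3 in the Hsp70 group and 2 in the aSYN/Hsp70 group. Mouse probe sets for the inducible Hsp70 genes Hspa1a and Hspa1b, 4 in all, differed between Hsp70 and wt by -0.14 to 0.26, and the groups overlapped. Between aSYN/Hsp70 and aSYN they differed by -0.49 to 0.60, with 3 higher and 1 lower, and the groups overlapped again. These probe sets therefore gave no check of the Hsp70 label. Among the brightest markers, the neuronal Snap25 and Syt1 and the glial Aldoc and Mbp lay at percentiles 99.8, 99.8, 99.9 and 99.9 of all probe sets by signal. Other brain markers lay lower, such as Gfap at 92.8, Aif1 at 67.6, Trem2 at 63.7 and Pecam1 at 62.0. Of genes looked at as foreign to brain, the liver genes Alb and Apoa2 lay at 28.9 and 47.9. The muscle genes Myh4, Ckm and Acta1 lay from 25.5 to 73.4, so the ranks of brain and foreign genes overlapped. Ttr, made in liver but also in choroid plexus, lay beside the brightest brain markers. Such ranks are rough, since signal depends on the probes. Beside the aSYN/Hsp70 results, 5 of the 6 oligodendrocyte markers were measured and 5 of 5 were lower than in aSYN (median -0.16). Their mean relative to wt ran from -0.25 to 0.08 in aSYN arrays and from -1.03 to -0.01 in aSYN/Hsp70 arrays. The -1.03 was replicate 4 alone and the next lowest, replicate 3, was at -0.30, both arrays of low weight. The dimmest of these markers, Mog, lay at percentile 81.7. Of the 4 endothelial markers 3 were measured, of which 1 exceeded its aSYN level in aSYN/Hsp70 and 2 fell short of it, and limma called the higher one, Cldn5 (0.71). Their mean relative to wt ran from -0.45 to -0.02 in aSYN arrays and from -0.28 to 0.41 in aSYN/Hsp70 arrays. All 4 pituitary markers were higher in aSYN/Hsp70 than in aSYN (median 0.93), but against wt 1 was higher and 3 were lower (median -0.38). Their mean relative to the wt mean ran from -2.70 to 2.59 in aSYN/Hsp70 arrays and from -1.72 to -1.03 in aSYN arrays. In the wt arrays themselves it ran from -2.41 to 4.92. RNA and labelling quality, read as 3′ less 5′ signal over 4 control transcripts, averaged 0.99 ± 0.12 in aSYN and 0.80 ± 0.16 in aSYN/Hsp70 (SD, n = 6). The part of these markers, of sex and of RNA quality in the results was not tested beyond the values given beside them, and in whole brain fewer cells of a type and less RNA per cell cannot be told apart.

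Averaged over the 44 genes, expression stayed within 0.04 log2 units of wt in every genotype. The mean of the members on an array, relative to wt, ran from -0.02 to 0.03 in wt, from -0.09 to 0.00 in aSYN, from -0.03 to 0.02 in Hsp70 and from -0.01 to 0.06 in aSYN/Hsp70. The group means were 0.00 ± 0.02, -0.04 ± 0.03, 0.00 ± 0.02 and 0.02 ± 0.03 (SD, n = 6), so the aSYN arrays were lowest on average and the aSYN/Hsp70 arrays highest, with ranges that touched.

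**Figure D1:**
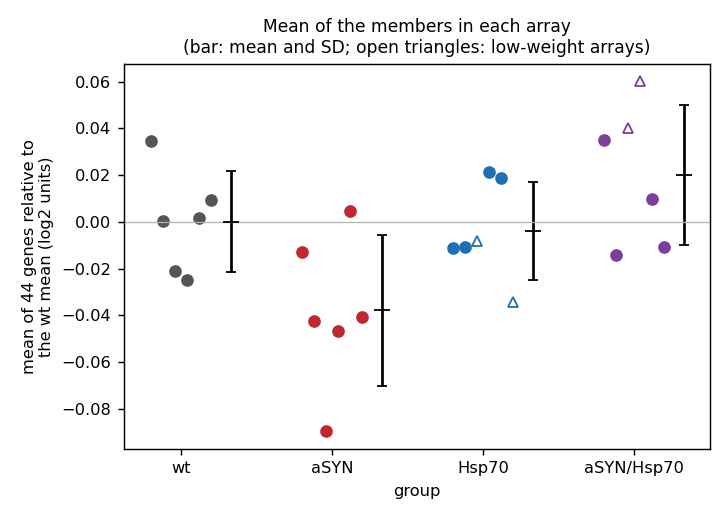
Each point is 1 array, and its height is the mean of the 44 genes (brightest probe sets) relative to the wt mean, in log2 units; bars give the mean and SD of 6 arrays and open triangles the 4 arrays of low weight. The aSYN arrays reach down to -0.09 and the aSYN/Hsp70 arrays up to 0.06, and every group overlaps wt.

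In aSYN brains 13 of the 44 genes were higher than in wt and 31 lower, with a median of -0.04, where the median of all 12929 tested genes was 0.01. Against Hsp70 alone, 24 of 44 were higher in aSYN/Hsp70 (median 0.01; all genes -0.01), and in Hsp70 23 were higher than in wt (median 0.00; all genes 0.01). In aSYN/Hsp70 27 of 44 were higher than in wt (median 0.05; all genes -0.01), and 31 of 44 were higher than in aSYN (median 0.08; all genes -0.01). Comparisons that share a group share its arrays and so are not independent of each other. The median of aSYN/Hsp70 against wt was 0.00 without the 4 arrays of low weight, and -0.01 when each gene was the mean of all its probe sets.

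Among the 95 tested probe sets, limma called 0 at adjusted p under 0.05 for aSYN against wt, where 0.0037% of all 27022 were called, and 6 passed an unadjusted p of 0.05 (6.32%, against 5.17% of all probe sets). All 6 were lower, where 3.31% of all probe sets were lower and 1.86% higher at that p. For the interaction of aSYN and Hsp70, the aSYN difference with Hsp70 minus that without it, limma called 0 (0% of all; 8 at unadjusted p, 8.42%, against 8.13%). For Hsp70 against wt it called 0 (0% of all), with 4 at unadjusted p (4.21%, against 4.83%). For aSYN/Hsp70 it called 0 against wt (0% of all; 11 at unadjusted p, 11.6%, against 14.5%) and 0 against Hsp70 (0% of all; 6 at unadjusted p, 6.32%, against 9.62%). The comparison of aSYN/Hsp70 with aSYN gave 3 calls (3.16%, against 0.718% of all), of which 2 were higher and 1 lower. The background was 0.496% for higher and 0.222% for lower calls. Both higher calls were probe sets of 1 gene, Ids, and the lower one was of Ctsz. At unadjusted p the members' share in that comparison was that of all probe sets, 20% against 19.6%, with 13 higher (8.76% of all) and 6 lower (10.9% of all).

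**Figure D2:**
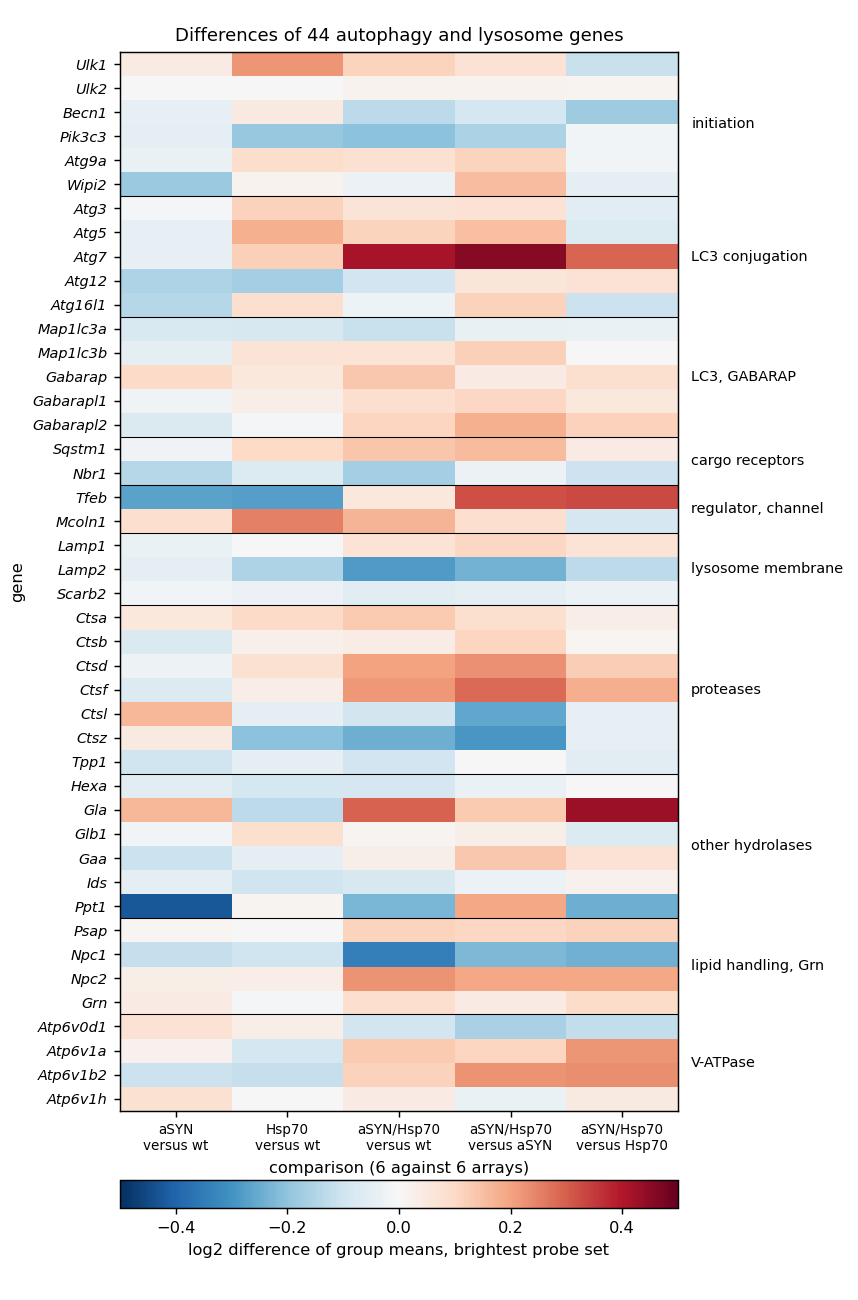
Rows are the 44 genes in role order, columns are 5 comparisons of 6 against 6 arrays, and colour is the log2 difference of the group means of the brightest probe set (red higher, blue lower in the first-named group). Most cells are pale; Atg7 in aSYN/Hsp70 against aSYN (0.45) is the deepest red and Ppt1 in aSYN against wt (-0.42) the deepest blue, and no cell passed the test.

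In what follows, 3 values of a group are its lowest, median and highest array. The genes that start the autophagosome gave no call. They are the kinase genes Ulk1 and Ulk2, Becn1 and Pik3c3 of the lipid kinase complex, the membrane protein gene Atg9a and the lipid sensor gene Wipi2. In aSYN against wt 5 of the 6 brightest probe sets were lower, from Wipi2 at -0.18 to Ulk1 at 0.04, and in aSYN/Hsp70 against aSYN 4 were higher, from Pik3c3 at -0.16 to Wipi2 at 0.16. A dimmer probe set of Ulk2 (1448858_at) lay at 11.53, 11.76 and 12.03 in aSYN and at 11.82, 12.04 and 12.23 in wt. The aSYN arrays were mostly below the wt arrays with overlap, and the difference of -0.27 did not pass (SE 0.09, limma adjusted p = 0.642). Its median was 12.09 in Hsp70 and 12.07 in aSYN/Hsp70, beside that of wt. The 3 tested probe sets of Ulk2 ran from -0.27 to 0.04 between aSYN and wt. Of Ulk1, 1416504_at differed by -0.52 between aSYN and wt (adjusted p = 0.825), whereas its brightest probe set differed by 0.04.

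The 5 genes that couple LC3 to the membrane were all lower in aSYN than in wt (median -0.04, Atg12 at -0.15 to Atg3 at -0.01). All 5 were higher in aSYN/Hsp70 than in aSYN (median 0.12, Atg12 at 0.06 to Atg7 at 0.45). Of the 5, 0 passed in any comparison, and the mean of the 5 relative to wt ran from -0.15 to 0.01 in aSYN arrays and from -0.03 to 0.14 in aSYN/Hsp70 arrays, with overlap. Atg7 encodes the enzyme that activates both LC3 and ATG12. Its brightest probe set (1428612_at) lay at 10.81, 11.05 and 11.32 in aSYN and at 11.18, 11.44 and 12.23 in aSYN/Hsp70 (SE of the difference 0.15, limma adjusted p = 0.113). Its dimmer 1428611_at went the other way, with medians of 10.17 (wt), 9.87 (aSYN), 9.24 (Hsp70) and 9.41 (aSYN/Hsp70). In Hsp70 those arrays spread from 7.59 to 10.72, and the -1.04 against wt did not pass (SE 0.46, adjusted p = 0.881). Of Atg5, which is joined to ATG12, 1415684_at differed by -0.45 between aSYN/Hsp70 and wt (adjusted p = 0.262), against 0.11 for its brightest probe set.

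Of the 5 genes for LC3 and GABARAP proteins, the tags of the autophagosome membrane, 4 were lower in aSYN than in wt (Map1lc3a at -0.07 to Gabarap at 0.10). In aSYN/Hsp70 4 were higher than in aSYN (median 0.10), with Gabarapl2 at 0.18 and Map1lc3a at -0.04 as the extremes. Gabarapl2 (1423187_at) lay at 15.14, 15.20 and 15.42 in aSYN and at 15.24, 15.44 and 15.53 in aSYN/Hsp70, overlapping (SE 0.08, limma adjusted p = 0.202).

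Among cargo receptors Nbr1 separated aSYN from the other genotypes on 1 of its probe sets, without passing the test. NBR1 brings ubiquitin-tagged proteins to the autophagosome. Its 1451897_a_at lay at 12.89, 13.03 and 13.15 in wt, at 12.61, 12.69 and 12.78 in aSYN, at 12.79, 12.93 and 13.23 in Hsp70 and at 12.86, 13.04 and 13.28 in aSYN/Hsp70. Every aSYN array was thus below every array of the other groups, if narrowly for Hsp70. It was the only 1 of 95 member probe sets whose aSYN and wt arrays did not overlap, against 1.17% of all probe sets. The differences were -0.32 between aSYN and wt (SE 0.08, limma adjusted p = 0.241) and 0.33 between aSYN/Hsp70 and aSYN (SE 0.08, adjusted p = 0.0546). The interaction was 0.38 (SE 0.11, adjusted p = 0.347). With array weights the 3 values passed (adjusted p = 0.0116, 0.0169 and 0.0461), and without the 4 arrays of low weight the first passed (0.0462) and the second stood at 0.0548. The second also passed with a trended and robust variance (0.0346), without aSYN/Hsp70 replicate 4 (0.0489) and without replicate 6 (0.0267). Most refits did not pass. Of 9 alternatives 2 called the first and 2 the second, and of 12 fits without a single array 0 and 2 did. The interaction passed in 1 of 8 alternatives and 0 of 24 such fits. Across the refits the limma adjusted p reached 0.628 for the first and 0.170 for the second. The brightest probe set of Nbr1 (1448343_a_at) had medians of 14.34 (wt), 14.20 (aSYN), 14.26 (Hsp70) and 14.20 (aSYN/Hsp70), and differed by -0.14 between aSYN and wt and by -0.03 between aSYN/Hsp70 and aSYN. Sqstm1, which encodes p62, differed by -0.02 and 0.16 in the same comparisons on its brightest probe set, with neither passing. Its dimmer probe set, 1444021_at, differed by 0.06 and 0.64, also without passing.

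**Figure D3:**
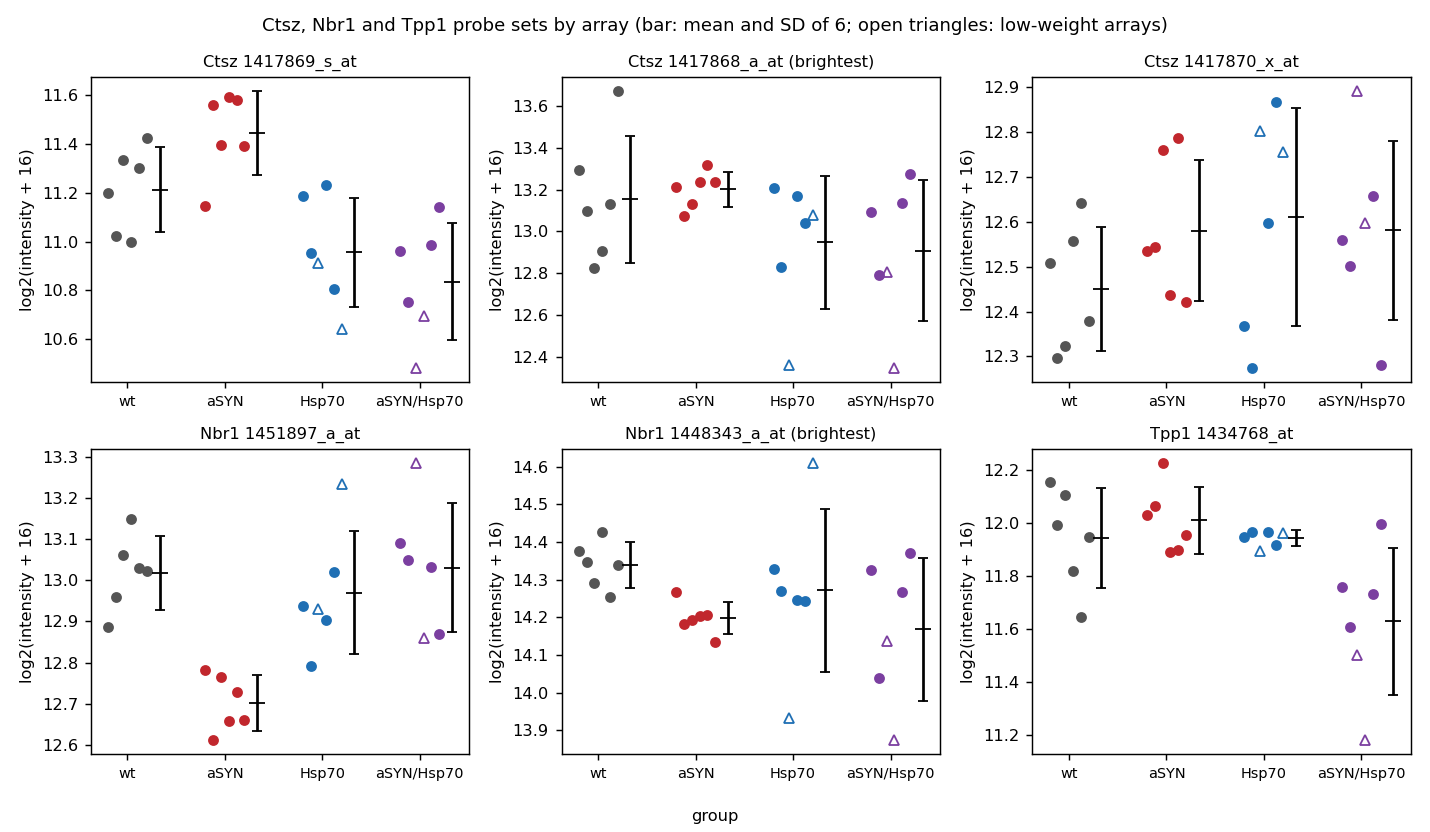
Each panel is 1 probe set and each point 1 array, on a log2(intensity + 16) axis; bars give the mean and SD of 6 and open triangles the arrays of low weight. Ctsz 1417869_s_at is lower in every aSYN/Hsp70 array than in aSYN while Ctsz 1417870_x_at is level, and Nbr1 1451897_a_at is lowest in aSYN while its brightest probe set is not.

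Tfeb, the regulator of lysosomal genes, had a single probe set. Its medians were 9.83 (wt), 9.79 (aSYN), 9.80 (Hsp70) and 10.08 (aSYN/Hsp70), and its SD reached 0.90, so a difference of 0.32 between aSYN/Hsp70 and aSYN was within the spread (SE 0.38, limma adjusted p = 0.653). Mcoln1 encodes the channel that releases calcium from the lysosome. On its brightest probe set (1416672_s_at) the medians were 12.11 (wt), 12.17 (aSYN), 12.33 (Hsp70) and 12.27 (aSYN/Hsp70). The Hsp70 arrays overlapped those of wt, and 0.25 was the member difference of smallest p between them without passing (SE 0.09, adjusted p = 0.881). A dimmer probe set of Mcoln1 differed by 0.34 (adjusted p = 0.881). Its 1416671_a_at differed by 0.38 between aSYN/Hsp70 and aSYN (adjusted p = 0.247). The 3 tested probe sets of Mcoln1 ran from -0.09 to 0.38 there, with 0.08 on the brightest.

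Of the 3 lysosomal membrane genes, Lamp2 was lower and Lamp1 higher in aSYN/Hsp70 than in aSYN, by -0.24 and 0.10, and neither passed. Lamp2 encodes a glycoprotein of the lysosomal membrane whose forms serve in fusion and in uptake of single proteins. All 4 tested probe sets of Lamp2 were lower in that comparison. On 1434503_s_at the medians were 12.94 (wt), 12.78 (aSYN), 11.88 (Hsp70) and 12.06 (aSYN/Hsp70). The arrays of each group spread over more than 1 log2 unit and overlapped, and the -0.80 between Hsp70 and wt did not pass (SE 0.33, limma adjusted p = 0.881).

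Among the 7 lysosomal proteases Ctsz was lower in aSYN/Hsp70 than in aSYN on 1 probe set. Ctsz encodes cathepsin Z, a carboxypeptidase (chromosome 2, 174427494 to 174439039 in GRCm38.p6). On 1417869_s_at the arrays had a median of 11.25 and a highest of 11.43 in wt and stood at 11.14, 11.48 and 11.59 in aSYN. They were 10.64, 10.93 and 11.23 in Hsp70 and 10.48, 10.86 and 11.14 in aSYN/Hsp70. The aSYN/Hsp70 arrays all lay below the aSYN arrays, though the nearest arrays of the groups were both at 11.14, and those of wt and Hsp70 overlapped with both. This probe set fell by 0.61 from aSYN to aSYN/Hsp70 (SE 0.12, limma adjusted p = 0.0219), a ratio of 0.656. Against wt the aSYN/Hsp70 difference was -0.38 (adjusted p = 0.255) and the Hsp70 difference -0.26 (adjusted p = 0.881). The brightest probe set, 1417868_a_at, had medians of 13.11, 13.22, 13.06 and 12.95 in wt, aSYN, Hsp70 and aSYN/Hsp70, with -0.29 for aSYN/Hsp70 against aSYN (adjusted p = 0.311). The third, 1417870_x_at, had medians of 12.44, 12.54, 12.68 and 12.58, with 0.00 (adjusted p = 0.997). The suffixes _s_at and _x_at mark designs whose probes can match other transcripts. Ctsz is rich in microglia, for which 9 of 10 markers were measured, with 2 higher and 7 lower (median -0.07). Their mean relative to wt ran from -0.09 to 0.31 in aSYN arrays and from -0.19 to 0.22 in aSYN/Hsp70 arrays, and their part in the result was not tested.

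The call of Ctsz was lost without the 4 arrays of low weight (-0.48, adjusted p = 0.0708) and when only the 12 arrays compared were fitted (0.115). It was lost too without aSYN replicate 2 (0.0601), aSYN replicate 3 (0.0528) or aSYN/Hsp70 replicate 3 (0.0589), and without the filter on dim probe sets (0.0630). With a sex covariate it stood at -0.63 (adjusted p = 0.0373). Of the other proteases Tpp1, a tripeptidase lost in a neuronal storage disease of childhood, came nearest to passing. Its 1434768_at had medians of 11.97 (wt), 11.99 (aSYN), 11.96 (Hsp70) and 11.67 (aSYN/Hsp70). The aSYN/Hsp70 arrays reached down to 11.18 and overlapped each group, with -0.38 against aSYN (SE 0.11, limma adjusted p = 0.0866; 0.0260 without aSYN/Hsp70 replicate 6). Its brightest probe set, 1448313_at, differed by 0.00 (medians of 13.89 in both). Over the brightest probe sets, 5 of the 7 protease genes were higher in aSYN/Hsp70 than in aSYN (median 0.08, Ctsf at 0.28 to Ctsz at -0.29), and 3 of 7 in aSYN against wt (Ctsl at 0.17 to Tpp1 at -0.10).

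The largest difference among members that passed was that of Ids. Ids encodes iduronate-2-sulfatase, a lysosomal enzyme that removes sulfate from heparan and dermatan sulfate and is lost in Hunter syndrome (chromosome X, 70343069 to 70385834 in GRCm38.p6). On 1421216_a_at the arrays lay at 10.53, 10.77 and 10.96 in wt, at 10.20, 10.35 and 10.65 in aSYN, at 10.67, 10.70 and 10.92 in Hsp70 and at 10.59, 11.36 and 11.77 in aSYN/Hsp70. The aSYN arrays were lowest, and 5 of the 6 aSYN/Hsp70 arrays were above every array of the other groups, while replicate 6 at 10.59 lay among them. The probe set rose by 0.88 from aSYN to aSYN/Hsp70 (SE 0.14, limma adjusted p = 0.00773), a ratio of 1.84. On 1450166_at the values were 10.44, 10.45 and 10.52 in wt, 9.81, 10.24 and 10.65 in aSYN, 9.89, 10.45 and 10.90 in Hsp70 and 10.79, 11.04 and 11.95 in aSYN/Hsp70. Here the aSYN/Hsp70 arrays were above all aSYN and all wt arrays and overlapped with Hsp70. It rose by 0.87 (SE 0.19, adjusted p = 0.0291), a ratio of 1.82.

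**Figure D4:**
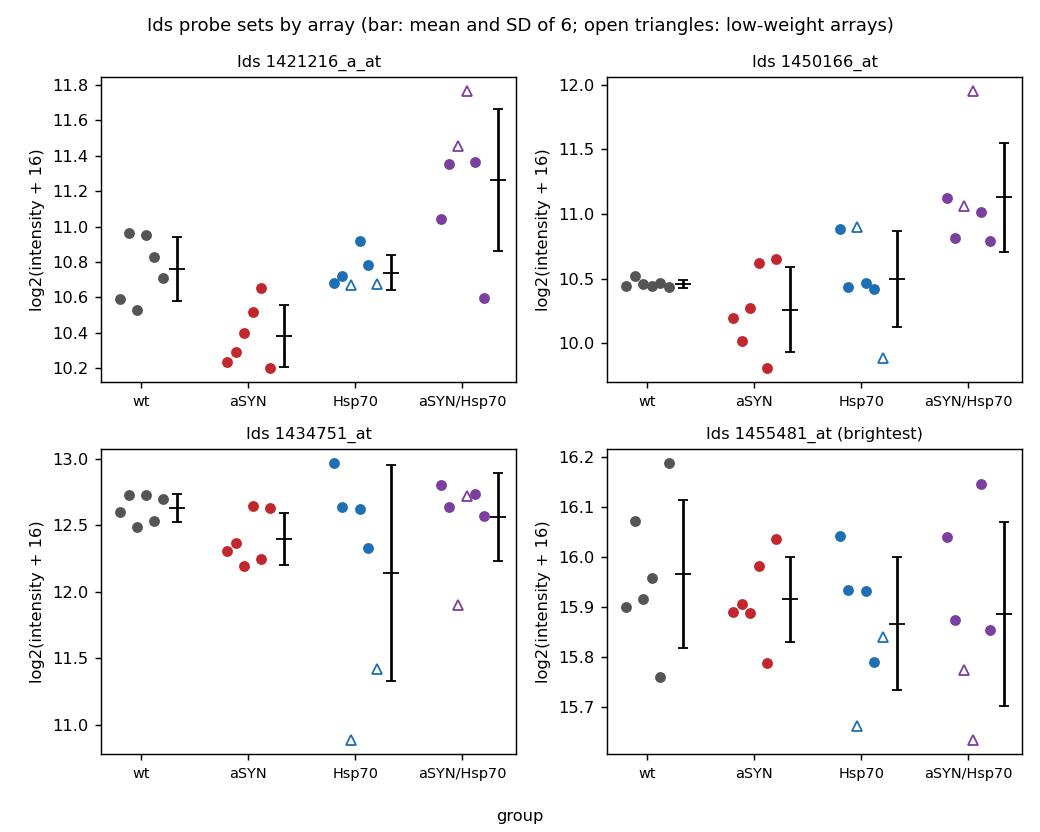
The 4 tested Ids probe sets, each point 1 array on a log2(intensity + 16) axis, with the mean and SD of 6 and open triangles for arrays of low weight. In the upper panels aSYN/Hsp70 stands above aSYN (0.88 and 0.87), and in the lower panels the groups overlap (0.16 and -0.03).

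The other 2 tested probe sets of Ids did not pass. Of these, 1434751_at differed by 0.16 (limma adjusted p = 0.740) and the brightest, 1455481_at, by -0.03 (adjusted p = 0.881). The 2 remaining probe sets of Ids were too dim to test. Where along the transcript each probe set lies was not analysed here. Between aSYN and wt 1421216_a_at differed by -0.38 without passing (SE 0.14, adjusted p = 0.732). Against wt the aSYN/Hsp70 differences were 0.50 and 0.67 (adjusted p = 0.221 for both), and against Hsp70 0.52 (0.264) and 0.63 (0.302). The interaction was 0.90 on 1421216_a_at (SE 0.20, adjusted p = 0.107) and 0.83 on 1450166_at (SE 0.26, adjusted p = 0.375).

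Both calls of Ids held without the 4 arrays of low weight (0.71, adjusted p = 0.0374, and 0.68, adjusted p = 0.0434) and with a sex covariate (0.83, 0.0179, and 0.93, 0.0391), and both were lost when only the 12 arrays compared were fitted (0.102 and 0.145). The call of 1450166_at was also lost without aSYN replicate 2 (0.0849), 3 (0.0729) or 5 (0.0629), without aSYN/Hsp70 replicate 3 (0.0618) or 4 (0.0540), and without the filter on dim probe sets (0.0656).

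The other hydrolases gave no call. Over the 6 brightest probe sets, 4 were higher in aSYN/Hsp70 than in aSYN (Hexa at -0.03 to Ppt1 at 0.19), and 5 were lower in aSYN than in wt (Ppt1 at -0.42 to Gla at 0.16). Ppt1 encodes the thioesterase that strips palmitate from proteins. Its 1422467_at lay at 13.32, 14.08 and 14.13 in wt and at 13.23, 13.54 and 13.94 in aSYN, with a single low wt array inside the aSYN range (SE 0.17, limma adjusted p = 0.800). Its medians in Hsp70 and aSYN/Hsp70 were 14.05 and 13.67. This was the lowest of the 4 tested probe sets of Ppt1 between aSYN and wt, which ran from -0.42 to 0.19 and so differed in sign. Gla encodes alpha-galactosidase, and its brightest probe set differed by 0.43 between aSYN/Hsp70 and Hsp70, the largest value of the group there, without passing. Its other tested probe set, 1449006_at, differed by -0.07 there.

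Of the genes for lipid handling, Npc2 was higher in aSYN/Hsp70 than in aSYN by 0.20 and Npc1 lower by -0.22. Both proteins carry cholesterol out of the lysosome. The single probe set of Npc1 (1423086_at) lay at 11.57, 11.62 and 11.83 in wt, at 11.32, 11.61 and 11.83 in aSYN, at 11.23, 11.65 and 11.76 in Hsp70 and at 10.95, 11.41 and 11.56 in aSYN/Hsp70. Its aSYN/Hsp70 arrays did not overlap with wt, though 11.56 and 11.57 were next to each other, and the -0.34 did not pass. It was singled out after its values were seen. With Ids 1450166_at it made 2 of 95 member probe sets whose aSYN/Hsp70 and wt arrays did not overlap (2.11%, against 0.888% of all). Against aSYN there were 3 of 95 (3.16%, against 2.05%), those of Ids 1450166_at, Nbr1 1451897_a_at and, narrowly, Ctsz 1417869_s_at. There were 0 for Hsp70 against wt (0.27% of all) and 0 for aSYN/Hsp70 against Hsp70 (0.311%).

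Among the 4 V-ATPase genes 2 that encode parts of the catalytic head had their highest medians in aSYN/Hsp70 on their brightest probe sets. Atp6v1b2 (1415814_at) had medians of 15.87 (wt), 15.74 (aSYN), 15.72 (Hsp70) and 15.91 (aSYN/Hsp70), with 0.23 against Hsp70 (SE 0.08, limma adjusted p = 0.387) and an interaction of 0.34 (SE 0.12, adjusted p = 0.426). Atp6v1a (1450634_at) had medians of 15.77, 15.77, 15.71 and 15.89 in the same order, with 0.22 against Hsp70 (adjusted p = 0.411). In both these probe sets the groups overlapped and the highest aSYN/Hsp70 array was replicate 4. The other tested probe set of Atp6v1a, 1422508_at, differed by 0.00 against Hsp70. The 3 tested probe sets of Atp6v1b2 ran from -0.09 to 0.36 against Hsp70 and from -0.11 to 0.51 for the interaction. Atp6v0d1, of the membrane part, differed by -0.16 between aSYN/Hsp70 and aSYN (adjusted p = 0.216). That was opposite in sign to the brightest probe sets of Atp6v1b2 and Atp6v1a.

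Probe sets of 1 gene often differed from each other. In aSYN/Hsp70 against aSYN, 30 genes had at least 2 tested probe sets, and in 12 of them all had the same sign. The distance between the highest and lowest difference of a gene had a median of 0.27 and reached 1.22 for Becn1. Of Becn1, 1435219_x_at differed by 0.62 (SE 0.68) and the brightest, 1460320_at, by -0.09, while 1455880_s_at differed by -0.59 (SE 0.19, limma adjusted p = 0.119). In aSYN against wt the same sign held in 15 of 30 genes, with a median distance of 0.18 and a largest of 0.61 for Ppt1.

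**Figure D5:**
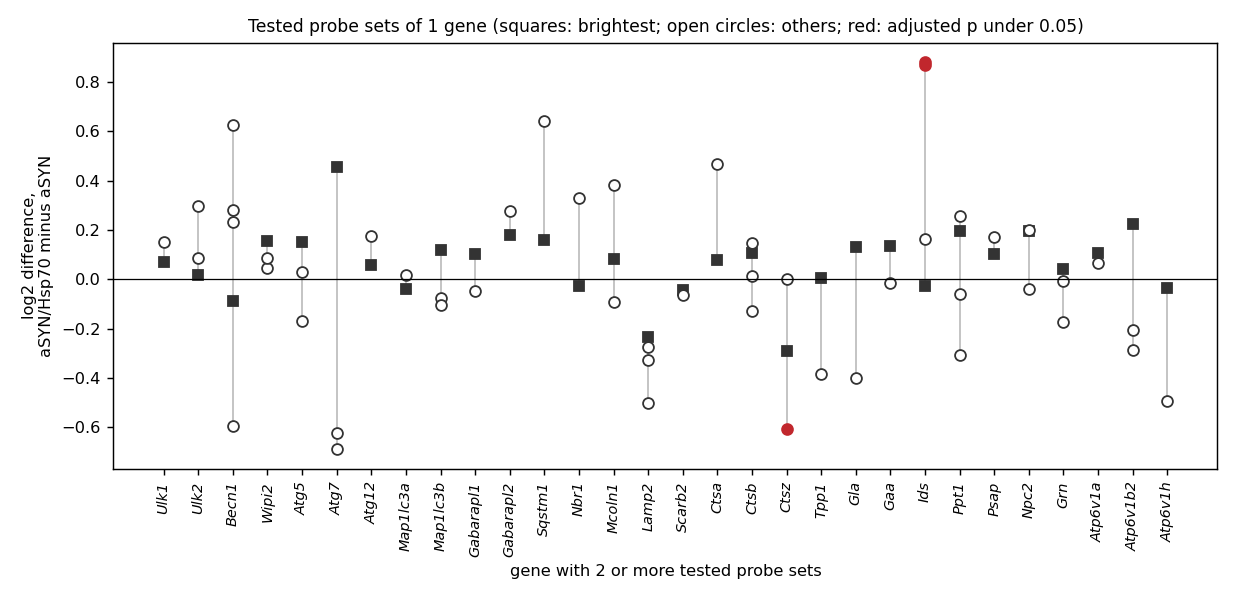
For each of the 30 genes with 2 or more tested probe sets, points give the log2 difference of aSYN/Hsp70 minus aSYN, with squares for the brightest probe set, open circles for the others and red for those that passed. The called probe sets of Ids (0.88 and 0.87) and Ctsz (-0.61) are far from the brightest probe sets of the same genes (-0.03 and -0.29), and lines that cross 0 mark genes whose probe sets differ in sign.

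Other genes of the pathway were counted from a wider list of 124, of which 114 had a named probe set and 218 probe sets were tested. Limma called 1 of them in all comparisons together, 0.459% of the 218 in aSYN/Hsp70 against aSYN, which is below the 0.718% of all probe sets, so the call says nothing about the pathway. Tollip encodes an adaptor that brings ubiquitin-tagged protein aggregates to LC3, and its 1423048_a_at rose from 11.79 in aSYN to 12.39 in aSYN/Hsp70 (0.60, SE 0.14, adjusted p = 0.0415). Its brightest probe set differed in the same direction by 0.29 (SE 0.07, adjusted p = 0.0555). Over the brightest probe sets aSYN/Hsp70 exceeded aSYN for 67 of 114 genes and fell short of it for 47 (median 0.03), and 52 were higher and 62 lower in aSYN than in wt (median -0.01). In the former comparison the medians of its groups lay between -0.04 for conjugation and fusion (8 of 18 higher) and 0.10 for other V-ATPase subunits (8 of 13 higher).

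The members were also described by whether TCACGTGA was in the promoter. In aSYN/Hsp70 against aSYN the 7 genes ran from -0.16 to 0.23 (median 0.08) and the 28 matched genes without it from -0.29 to 0.45 (median 0.10). In aSYN against wt the medians were 0.05 and -0.04, with 5 of 7 and 7 of 28 genes higher, and this split was not tested. In Hsp70 against wt and in aSYN/Hsp70 against Hsp70 the highest gene had the string (0.25 and 0.43, against 0.22 and 0.33 for the highest without it). In every other comparison the highest gene lacked it. With 28 genes against 7, the larger set holds the highest gene more often by size alone, so nothing is read from these maxima. The values without and with the string were 0.167 and 0.165 for aSYN against wt and 0.413 and 0.295 for aSYN/Hsp70 against wt. They were 0.454 and 0.227 for aSYN/Hsp70 against aSYN and 0.597 and 0.263 for the interaction. Brightest probe sets were used, 0 of them passed in either set, and the promoter windows shown above cover only bases near the start sites used.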

How the data were processed

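The authors deposited intensity on a linear scale for every probe set on every array; the summarisation program was not given in the sources used here. For each array, the mean without its lowest and highest 2% of probe sets was 2500, so each had been scaled by a single factor. Intensities were transformed as log2(intensity + 16), which understates differences of dim probe sets, and quantile normalised. The 64 control probe sets and the 18015 dimmest (40%) were left out, and 27022 were tested. Comparisons were contrasts of group means in a limma model over the 24 arrays, with Benjamini-Hochberg adjustment over all 27022 and a threshold of 0.05 (limma 3.58.1, R 4.3.3). The fit was tested on simulated data. Genes were named from GEO's platform annotation; all 44 matched RefSeq by gene ID and 0 symbols changed. Named were all called member probe sets or, where fewer than 5 were called, the 5 of smallest p, with the extremes of each role group. The members, lists and alternatives were chosen with earlier results of these data known. The labels do not say whether replicate numbers pair the arrays, and the main fit did not pair them. Deviations of arrays correlated with a median r of 0.02 over 36 same-number pairs and -0.01 over 180 different-number pairs. Whether arrays shared a batch was not tested. Alternatives covered normalisation, offset, filter, arrays fitted, replicate block, array weights, sex covariate and variance model. The number of arrays limits the precision. Figures used matplotlib 3.10.9.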

Additional observations from a re-analysis of the deposited data

Results flagged for a closer look

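In 64 groups of 6 arrays (15 named probe sets and the array means of the members), 7 had an end array set apart by a gap that was large for the group's range, where chance gives about 5% of groups. The aSYN/Hsp70 replicate 4 array, which had the lowest weight of all (0.124), was that array in 4 of the 7. It was highest for Atp6v1b2 1415814_at (16.41, next 15.97), Atp6v1a 1450634_at (16.12, next 15.92) and Ids 1450166_at (11.95, next 11.13), and lowest for Atg7 1428611_at (7.21, next 9.12). Among wt arrays, replicate 6 was low for Ppt1 1422467_at (13.32, next 14.05) and replicate 3 for Mcoln1 1416672_s_at (11.82, next 12.08). For Ids 1450166_at, wt replicate 2 stood at 10.52 where the next array was at 10.46, in a group whose whole range was 10.44 to 10.52. No cause of these values was tested.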

How the results depend on the processing

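No result changed sign in a called value. The count of called member probe sets for aSYN/Hsp70 against aSYN, 3 as reported, was 1 without the filter on dim probe sets (43 of all probe sets called, from more probe sets tested), 0 with only the arrays compared (7 of all) and 1 with the replicate block, which left 70 calls of 194 in all. The block kept Ids 1421216_a_at (limma adjusted p = 0.00699) and lost Ids 1450166_at (0.0515) and Ctsz 1417869_s_at (0.0609). The labels do not say whether replicate numbers pair the arrays. Leaving out single arrays gave 1 to 6 calls, 1 without aSYN replicate 2, aSYN replicate 3 or aSYN/Hsp70 replicate 3, and 6 without aSYN/Hsp70 replicate 6 (Ctsz, Ids, Tpp1, Nbr1 and Becn1; 814 of all). For aSYN against wt 1 member, Nbr1, was called with array weights (217 of all) and 1 without the 4 arrays of low weight (35 of all). For the interaction 1 (Nbr1) was called with array weights (81 of all), and single arrays left out gave 0 to 1 (Ids, without aSYN/Hsp70 replicate 6). The members' median of 0.0469 for aSYN/Hsp70 against wt was 0.00347 with array weights, 0.000878 without the 4 arrays and -0.0134 with genes averaged across their probe sets. The causes of these shifts were not tested. Of the 13 changes among named probe sets outside single-array fits, 8 lost a call and 5 gained one, in Ids, Ctsz and Nbr1. The other counts and medians stayed within 1.5 times or 1 SD in the alternatives run. With 6 arrays a group and dim probe sets compressed by the offset, a member difference that did not pass was not shown to be absent.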
